A study of Mus musculus with 20 samples.

Results

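The 37 genes annotated on mouse mitochondrial DNA were examined in kidney and liver, in mice labelled Lxrα-/- and in wild type mice. They were taken as every gene placed on the mitochondrial chromosome (MT), of any kind, and made up 37 of the 54532 genes in the deposited count table. Of the 37 genes, 13 code for proteins, 2 for ribosomal RNAs (rRNAs) and 22 for transfer RNAs (tRNAs). The positions of all 37 equal those of the GENCODE M21 annotation of GRCm38, the assembly also called mm10.

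RNA was sequenced from kidneys and livers of male mice on a C57BL/6 background. Each organ had 5 libraries with the label Lxrα-/- (KO) and 5 wild type (WT), which gave 20 libraries in 4 groups of 5. The labels do not say whether a kidney and a liver of equal number came from 1 mouse. The gene Nr1h3 encodes Lxrα, a nuclear receptor that binds oxysterols, and comparing the genotypes in each tissue asks what its loss changes. The age of the mice, their diet, whether they were littermates and how the allele was made are not given in the sources used here, and no treatment is named. Titles number the KO mice 1 to 5 and the WT mice 1, 3, 4, 5 and 6 in both tissues.

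Mitochondrial DNA is a small circle carried in many copies per cell. Its protein-coding genes make core subunits of respiratory complexes I, III and IV and of ATP synthase, and its rRNAs and tRNAs serve the ribosomes that translate them. Both strands are transcribed into long precursors, and most tRNAs lie between the longer genes and mark the places where the precursors are cut. The rRNAs, 14 of the tRNAs and all coding genes but mt-Nd6 are read along the plus strand of the reference, as parts of the heavy-strand transcript. The other 8 tRNAs and mt-Nd6, a complex I subunit, are read along the minus strand, as parts of the light-strand transcript. The proximal tubule of the kidney and the hepatocyte are both known as cells rich in mitochondria. In whole tissue, fewer cells of a type and less RNA per cell cannot be told apart.

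Total counts per library ran from 23421561 to 35376342. Nr1h3 reached 100.5 to 145 CPM (the counts-per-million unit) in KO kidney against 39.3 to 65.3 in WT kidney, and 142 to 182 in KO liver against 86.9 to 116 in WT liver. These are counts over the whole gene, the deleted part is not given, and so they do not check the genotype labels; KO names the label throughout. Markers fitted the tissues: summed proximal tubule markers were at 47555 to 77143 CPM of the non-mitochondrial total in the kidneys and 1043 to 3100 in the livers, and hepatocyte markers at 232 to 779 in the kidneys and 110208 to 168451 in the livers. WT kidney 1 and WT kidney 3 stood apart in the mitochondrial share, as given next, and results that rest on them are given with and without them.

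Stretches of the mitochondrial genome also lie in nuclear chromosomes, and the reads of such a copy and of the original can be hard to separate. A run of 7 annotated pseudogenes on the minus strand of chromosome 1 (GRCm38, chr1:24611535-24616197) copies part of mt-Co1, then mt-Co2, mt-Atp6, mt-Co3, mt-Nd3, mt-Nd4l and part of mt-Nd4, in that order. The gene mt-Nd3 (MT:9459-9806, plus strand), a complex I subunit, and its copy Gm28438 (chr1:24612775-24613119, minus strand) are shown because they differ at a single base of the 345 aligned; the first 150 bases of each are printed (MT:9459-9608 and chr1:24612970-24613119). That base is in capitals, and the change is T3C, with mt-Nd3 first and position 3 counted from the start of the gene.
mt-Nd3: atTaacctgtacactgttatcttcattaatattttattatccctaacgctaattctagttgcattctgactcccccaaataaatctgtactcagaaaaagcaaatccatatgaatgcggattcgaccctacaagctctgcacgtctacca
Gm28438: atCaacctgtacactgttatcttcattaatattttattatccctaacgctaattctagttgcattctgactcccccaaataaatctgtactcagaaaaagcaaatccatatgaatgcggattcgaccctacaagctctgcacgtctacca

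The tRNA genes that carry most tRNA counts or that differed between the tissues are shown with the anticodon in capitals, as DNA of the tRNA's own strand from the GENCODE M21 transcripts. The first 5 (for proline, cysteine, asparagine, glutamate and tyrosine) are light-strand genes. The last 3 (for tryptophan, methionine and histidine) are heavy-strand genes.
mt-Tp: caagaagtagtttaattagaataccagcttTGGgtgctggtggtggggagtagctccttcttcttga
mt-Tc: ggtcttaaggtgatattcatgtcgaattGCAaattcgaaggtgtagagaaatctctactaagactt
mt-Tn: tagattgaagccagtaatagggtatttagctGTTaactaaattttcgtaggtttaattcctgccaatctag
mt-Te: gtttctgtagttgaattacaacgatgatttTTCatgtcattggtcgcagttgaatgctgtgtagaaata
mt-Ty: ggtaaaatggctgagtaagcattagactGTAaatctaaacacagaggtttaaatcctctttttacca
mt-Tw: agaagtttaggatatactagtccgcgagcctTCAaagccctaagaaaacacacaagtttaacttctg
mt-Tm: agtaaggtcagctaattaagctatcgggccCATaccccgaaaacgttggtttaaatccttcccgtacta
mt-Th: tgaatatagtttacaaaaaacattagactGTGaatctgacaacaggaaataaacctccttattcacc

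The mitochondrial genes took a larger share of the counts in kidney than in liver on average, and the genotypes overlapped in both tissues. Their share of all counts was 13.5%, 17.4%, 12.6%, 19.1% and 13.8% in KO kidneys 1 to 5, and 7.21%, 50.8%, 21.1%, 18.1% and 15.8% in WT kidneys 1, 3, 4, 5 and 6. In liver it was 10.1%, 9.01%, 13.2%, 5.49% and 7.31% in KO mice 1 to 5, and 12.1%, 9.22%, 8.84%, 9.24% and 6.99% in WT mice 1, 3, 4, 5 and 6. The WT kidneys held both the lowest and the highest share of all kidneys. In WT kidney 3 mitochondrial genes took about as many counts as all other genes together (95% Wilson interval 50.7% to 50.8%, counting error only).

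**Figure D1:**
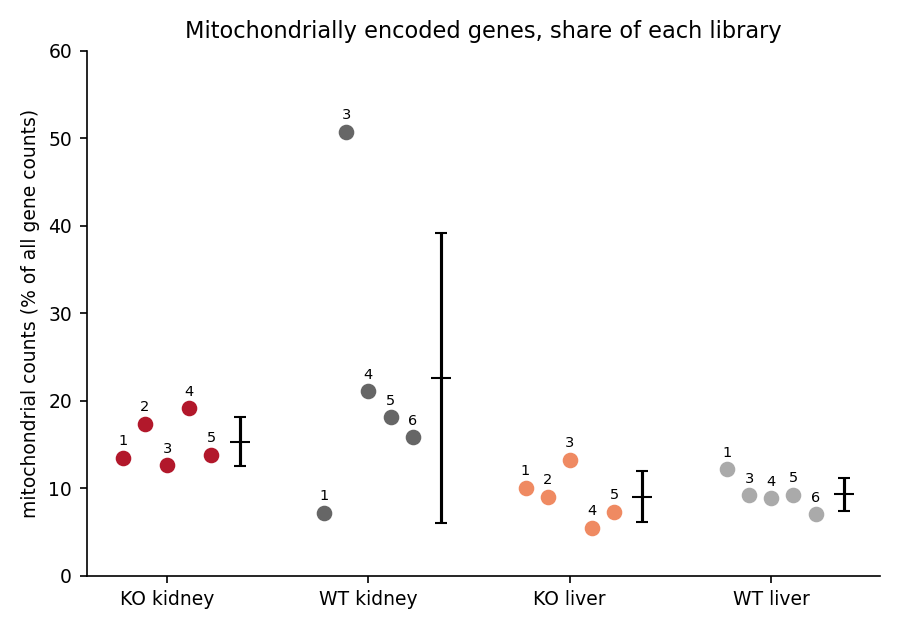
Share of all counts (percent, vertical axis from 0) in the 37 mitochondrial genes; each point is a library with its mouse number, and the black bar is the group mean with its SD. The 5 KO kidneys lie between 12.6% and 19.1%, within the 7.21% to 50.8% of the 5 WT kidneys, and KO and WT livers overlap.

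The mean share was 15.3% ± 2.81 in KO kidney and 22.6% ± 16.6 in WT kidney, and 9.02% ± 2.93 in KO liver and 9.29% ± 1.85 in WT liver (SD, n = 5 each). The difference of KO minus WT in kidney was -7.32 percentage points. It was -0.276 points without WT kidney 3 and -3.06 points without WT kidneys 1 and 3. In liver the difference of KO minus WT was -0.267 points. In KO mice the kidneys exceeded the livers by 6.27 points on average, and the ranges overlapped at the lower end, where KO kidney 3 had 12.6% and KO liver 3 had 13.2%. In WT mice the kidneys exceeded the livers by 13.3 points, by 6.28 without WT kidney 3 and by 9.06 without WT kidneys 1 and 3. These sums over the chosen genes were described and not tested.

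WT kidney 3 also differed from the other kidneys outside the mitochondrial chromosome. Its summed nuclear-retained and non-polyadenylated RNAs, such as Malat1 and Neat1, reached 9202 CPM of the non-mitochondrial total, against 735 to 2960 in the other kidneys. Of that list's 10 genes, 4 were above 1 CPM in it and 5 were at 0. Its summed nuclear-encoded ATP synthase subunits were at 5494 CPM of that total, against 11192 to 13539 in the other kidneys, and its nuclear-encoded complex II subunits at 953 against 2004 to 2328. The part of these differences in the results on WT kidney was not tested.

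Within the set, nearly all counts fell on protein-coding genes: 97.2% to 99.2% over the 20 libraries. The rRNAs took 0.692% to 2.37% and the tRNAs 0.118% to 0.432%. The 6 genes with most counts were mt-Co1, mt-Cytb, mt-Nd1, mt-Nd2, mt-Nd4 and mt-Nd5, and they held 94.2% to 97.7% of the set in every library. These 6 encode a catalytic subunit of complex IV, cytochrome b of complex III and 4 subunits of complex I.

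Levels of different genes were compared per length, as CPM per kilobase of the gene, averaged over the 20 libraries. By this measure mt-Co1 (MT:5328-6872) came first with 32827 (15003 to 117028 over the libraries), before mt-Cytb (MT:14145-15288) with 25215 (9525 to 89318) and mt-Nd1 (MT:2751-3707) with 17205 (5124 to 65501). The complex I subunits mt-Nd2, mt-Nd4, mt-Nd5 and mt-Nd6 followed with 13959, 9239, 6040 and 4132. The libraries' ranges of neighbours in this order overlap widely.

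The other coding genes stood far below. The complex IV subunits mt-Co2 and mt-Co3 averaged 1075 and 748 CPM per kilobase, and the ATP synthase subunit mt-Atp6 averaged 627. The complex I subunits mt-Nd4l and mt-Nd3 averaged 407 and 153. The lowest coding gene was mt-Atp8, the other mitochondrial ATP synthase subunit, with 10.7 (1.93 to 61.5), although its reading frame shares 43 bases with mt-Atp6 on one messenger. The rRNAs mt-Rnr1 (12S, of the small ribosomal subunit) and mt-Rnr2 (16S, of the large ribosomal subunit) averaged 833 and 644, below mt-Nd6. These values rank what the libraries captured and not amounts in the cell. How far capture differed between rRNAs, tRNAs and messengers was not tested.

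**Figure D2:**
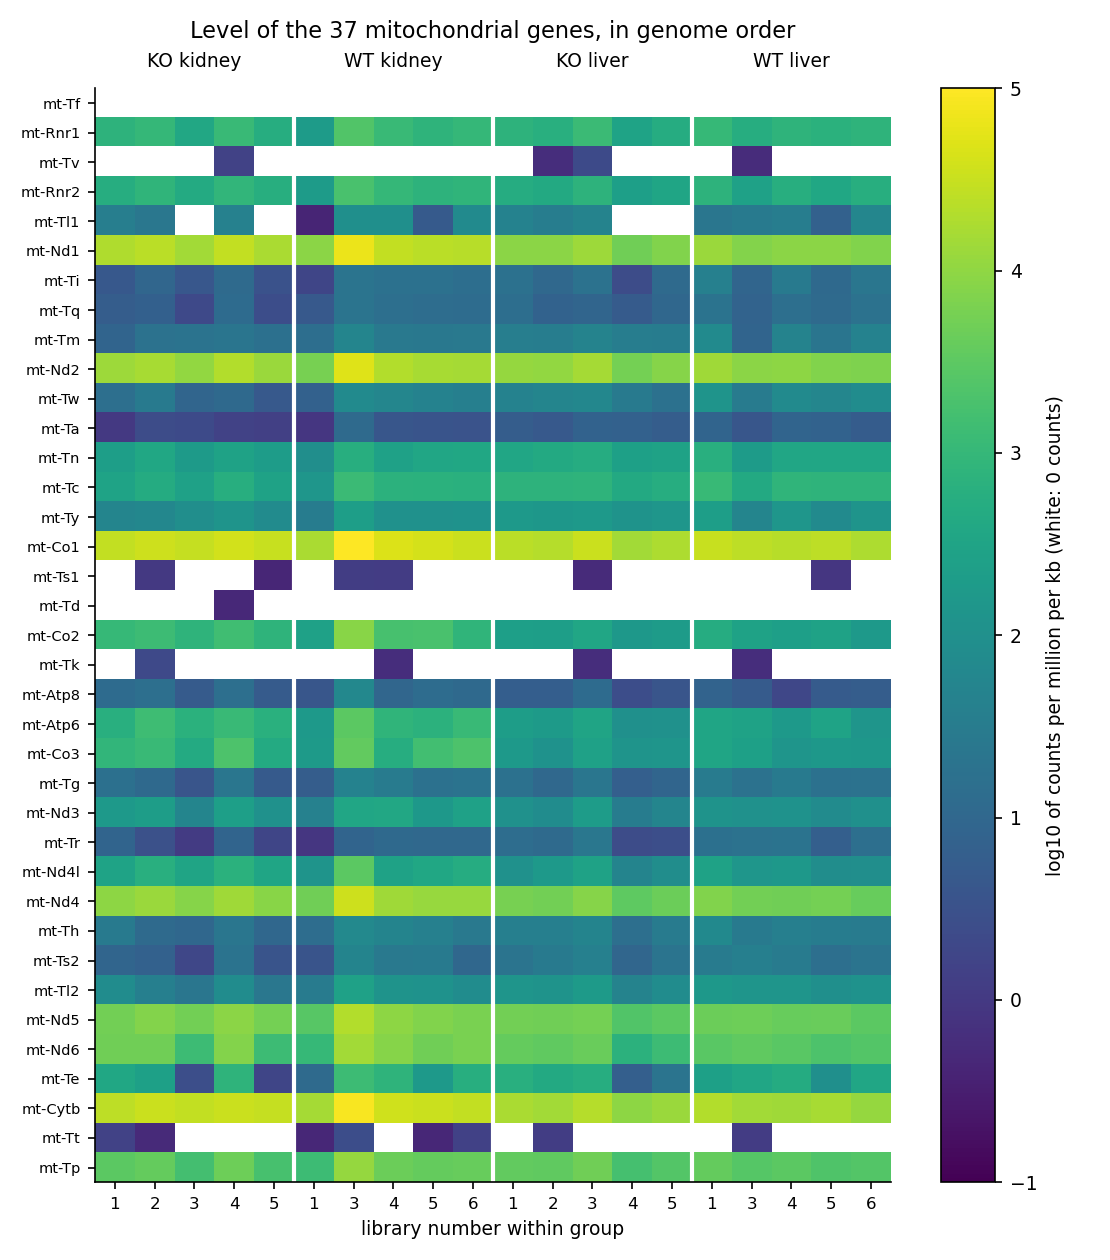
Level of each of the 37 mitochondrial genes (rows, in genome order) in each of the 20 libraries (columns, by group and mouse number); colour gives log10 of CPM per kilobase, and white cells have 0 counts. The rows of mt-Co1, mt-Cytb and mt-Nd1 are brightest, mt-Co2, mt-Atp6, mt-Co3, mt-Nd3 and mt-Nd4l are darker than mt-Co1 and mt-Nd4, most tRNAs are dark, and WT kidney 3 is the brightest column among the coding genes.

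The 5 middle genes that stood low, mt-Co2, mt-Atp6, mt-Co3, mt-Nd3 and mt-Nd4l, are the ones with a nearly complete annotated copy on chromosome 1. Of their runs of 50 bases, the share also found in another annotated transcript was 100% for mt-Co2, 99.9% for mt-Co3, 99.5% for mt-Atp6, 98.8% for mt-Nd4l and 98.0% for mt-Nd3. It was 62.2% for mt-Nd4, 51.1% for mt-Co1, 8.19% for mt-Nd2, 7.61% for mt-Nd5 and 1.04% for mt-Rnr2. For mt-Cytb, mt-Nd1, mt-Nd6, mt-Atp8, mt-Rnr1 and every tRNA the share was 0. Only annotated transcripts were searched, so copies outside them are not covered. That leaves out the stretches between the chromosome 1 pseudogenes. Copies of mt-Ts1, mt-Td, mt-Tk, mt-Atp8, mt-Tg and mt-Tr would lie there if the order on MT is kept.

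The aligned copies of mt-Co2, mt-Atp6, mt-Co3 and mt-Nd4l (Gm28661, Gm10925, Gm28437 and Gm10222) hold no difference over 681, 678, 783 and 294 bases. How the authors counted reads that fit more than 1 place is not given in the sources used here, so the levels of these genes are uncertain. Of the counts on a gene and its copy together, the copy took a median of 44.4% for mt-Atp6 (27.4% to 53.4% over the libraries), 33.6% for mt-Co3, 31.2% for mt-Co2, 24.2% for mt-Nd4l and 20.5% for mt-Nd3. It took 0.647% for mt-Nd4 and 0.258% for mt-Co1. The 7 copies together reached 834 to 2074 CPM in KO kidney against 364 to 4856 in WT kidney, and 315 to 700 in KO liver against 321 to 569 in WT liver. This was 0.402% to 1.11% of the mitochondrial counts of a library.

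Of the 196270 counts on tRNA genes over all libraries, 184546 fell on the 8 light-strand tRNAs and 11724 on the 14 heavy-strand tRNAs. The highest per length was mt-Tp (MT:15356-15422, minus strand), the proline tRNA and the last gene before the control region, with 3500 CPM per kilobase. Next came mt-Tc (MT:5192-5257), mt-Te (MT:14071-14139) and mt-Tn (MT:5089-5159), all on the minus strand, with 633, 374 and 334. At the other end mt-Tf, the phenylalanine tRNA, had no count in any library. The genes mt-Td, mt-Tk, mt-Tv, mt-Ts1 and mt-Tt, singled out after their values were seen, had 1, 7, 9, 10 and 17 counts in all. Mature tRNAs are short, tightly folded and heavily modified RNAs. Whether the counting used the strand is not given, so reads of overlapping or opposite genes cannot be told apart; mt-Nd5 and mt-Nd6 share 14 bases on opposite strands.

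The genes mt-Te and mt-Nd6 lie side by side on the light-strand transcript (mt-Nd6 at MT:13552-14070), and mt-Te varied most between libraries among the named tRNAs. It had 752, 518, 5, 1535 and 4 counts in KO kidneys 1 to 5, and 27, 2108, 1441, 364 and 1228 in WT kidneys 1, 3, 4, 5 and 6. In liver it had 1135, 714, 958, 16 and 38 counts in KO mice 1 to 5, and 460, 617, 971, 219 and 752 in WT mice 1, 3, 4, 5 and 6. As a share of the set, its highest library exceeded its lowest 312-fold in kidney and 50.5-fold in liver.

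The 5 libraries lowest in the mt-Te share, KO kidney 5, KO kidney 3, KO liver 4, WT kidney 1 and KO liver 5, were also the lowest in the mt-Nd6 share. There mt-Nd6 made up 0.498%, 0.535%, 0.676%, 0.733% and 0.916% of the mitochondrial counts, and at least 1.161% in each other library. The heavy-strand gene mt-Tl1 (leucine tRNA, chosen after its values were seen) had 0 or 1 count in the same 5 libraries and 12 to 184 in the others. The light-strand mt-Tp had at least 2845 counts in every library. Its share of the set was lowest among kidneys in KO kidney 3 (0.0847%), KO kidney 5 (0.0873%) and WT kidney 1 (0.122%), against 0.143% to 0.171% in the other kidneys. In KO livers 4 and 5 it was 0.209% and 0.232%, within the range of the WT livers, 0.164% to 0.234%. These libraries carry both labels and both tissues, and they are described library by library, with no test.

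**Figure D3:**
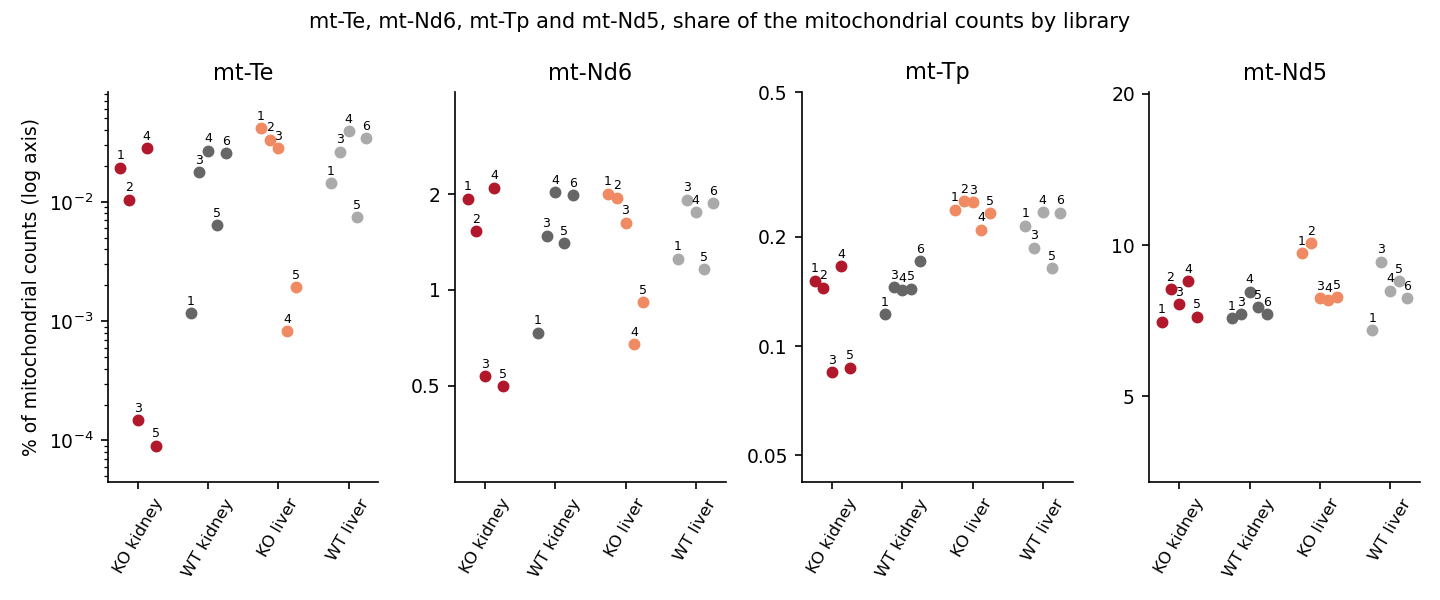
Share of the mitochondrial counts (percent, log axes) of the light-strand genes mt-Te, mt-Nd6 and mt-Tp and of mt-Nd5, which lies opposite; each point is a library with its mouse number. KO kidneys 3 and 5, KO livers 4 and 5 and WT kidney 1 lie lowest for mt-Te and mt-Nd6, while mt-Tp and mt-Nd5 vary much less.

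No mitochondrial gene passed the test between the genotypes in kidney. Differences were tested per gene by edgeR's quasi-likelihood test over all genes, with TMM scaling (trimmed mean of M values) and Benjamini-Hochberg adjustment, and the threshold for a call was an adjusted p of 0.05. In kidney 0 of the 30 mitochondrial genes tested were called, beside 2.26% of all genes tested. At an unadjusted p below 0.05 there were 4 (mt-Tw, mt-Th, mt-Tl2 and mt-Ts2, of which the last pair is named after its values were seen), beside 19.8% of all genes. The other 7 mitochondrial genes had too few counts to be tested.

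The complex IV gene mt-Co1 made up 4.43%, 5.49%, 4.55%, 5.89% and 4.85% of all counts in KO kidneys 1 to 5. In WT kidneys 1, 3, 4, 5 and 6 it made up 2.62%, 18.1%, 7.33%, 6.45% and 5.14%. The groups overlapped. The KO kidneys lay close together, and the wide spread of the WT kidneys came from WT kidneys 1 and 3. WT kidneys 4, 5 and 6 lay between 5.14% and 7.33%. The log2 fold change of KO against WT was -0.74 ± 0.57 (SE; edgeR adjusted p = 0.457), and -0.93 to 0.04 when single libraries were left out.

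The cytochrome b gene mt-Cytb, the single complex III gene of this genome, made up 2.83%, 3.86%, 3.20%, 3.85% and 3.41% of counts in KO kidneys 1 to 5. It made up 1.73%, 10.2%, 4.26%, 3.82% and 3.27% in WT kidneys 1, 3, 4, 5 and 6. Both the lowest and the highest value were again in WT kidneys 1 and 3. The complex I gene mt-Nd1 showed the same order at the ends, with 1.37% to 2.69% of counts in KO kidney and 0.868% to 6.27% in WT kidney.

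Among the low coding genes, mt-Co2 had 707, 912, 542, 969 and 551 CPM in KO kidneys 1 to 5. It had 184, 5898, 1258, 1286 and 567 CPM in WT kidneys 1, 3, 4, 5 and 6. WT kidney 3 exceeded every other kidney by far, and the fold change (log2 -1.49 ± 0.75; edgeR adjusted p = 0.289) moved to between -1.73 and -0.05 when single libraries were left out, the last without WT kidney 3. The rRNAs likewise overlapped: mt-Rnr1 ran from 383 to 1138 CPM in KO kidney and from 187 to 2251 in WT kidney, and mt-Rnr2 from 720 to 1429 in KO kidney and from 312 to 2943 in WT kidney.

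The smallest p in kidney belonged to mt-Tw, the tryptophan tRNA, which lies between mt-Nd2 and the light-strand tRNA cluster (MT:4950-5016). It had 1.04, 1.85, 0.602, 0.770 and 0.312 CPM in KO kidneys 1 to 5, from 10 to 53 counts. It had 0.497, 4.91, 3.81, 3.05 and 2.60 CPM in WT kidneys 1, 3, 4, 5 and 6, from 16 to 115 counts. Only WT kidney 1 lay within the KO range, and the other 4 WT kidneys lay above it. The log2 fold change was -1.75 ± 0.59 (edgeR adjusted p = 0.135). The DESeq2 Wald test and limma voom called it, but they called 1143 and 2151 of all 16500 genes tested, against 373 in edgeR. With edgeR it was called without WT kidney 1 (adjusted p = 0.0387) and without WT kidneys 1 and 3. No other alternative called it, and with single libraries left out edgeR's adjusted p reached 0.296.

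The histidine tRNA mt-Th (MT:11546-11612) had 1.94, 0.805, 0.677, 1.54 and 0.687 CPM in KO kidneys 1 to 5. It had 0.931, 4.57, 3.50, 2.76 and 1.78 CPM in WT kidneys 1, 3, 4, 5 and 6. The groups overlapped through WT kidneys 1 and 6, and the log2 fold change was -1.28 ± 0.50 (edgeR adjusted p = 0.184). Of the alternatives run, only limma voom called it, beside 2151 of all 16500 genes tested.

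The fold changes of all 30 tested genes in kidney were below 0, from -1.75 to -0.43 with a median of -0.83, beside a median of -0.07 over all genes tested. Without WT kidney 3, 17 of the 30 were below 0 and the median was -0.06, with a range of -1.34 to 0.55. Without WT kidneys 1 and 3, 28 were below 0 and the median was -0.40, with a range of -1.72 to 0.24. The genes share their precursors and each library's mitochondrial share, so they are not independent of each other.

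**Figure D4:**
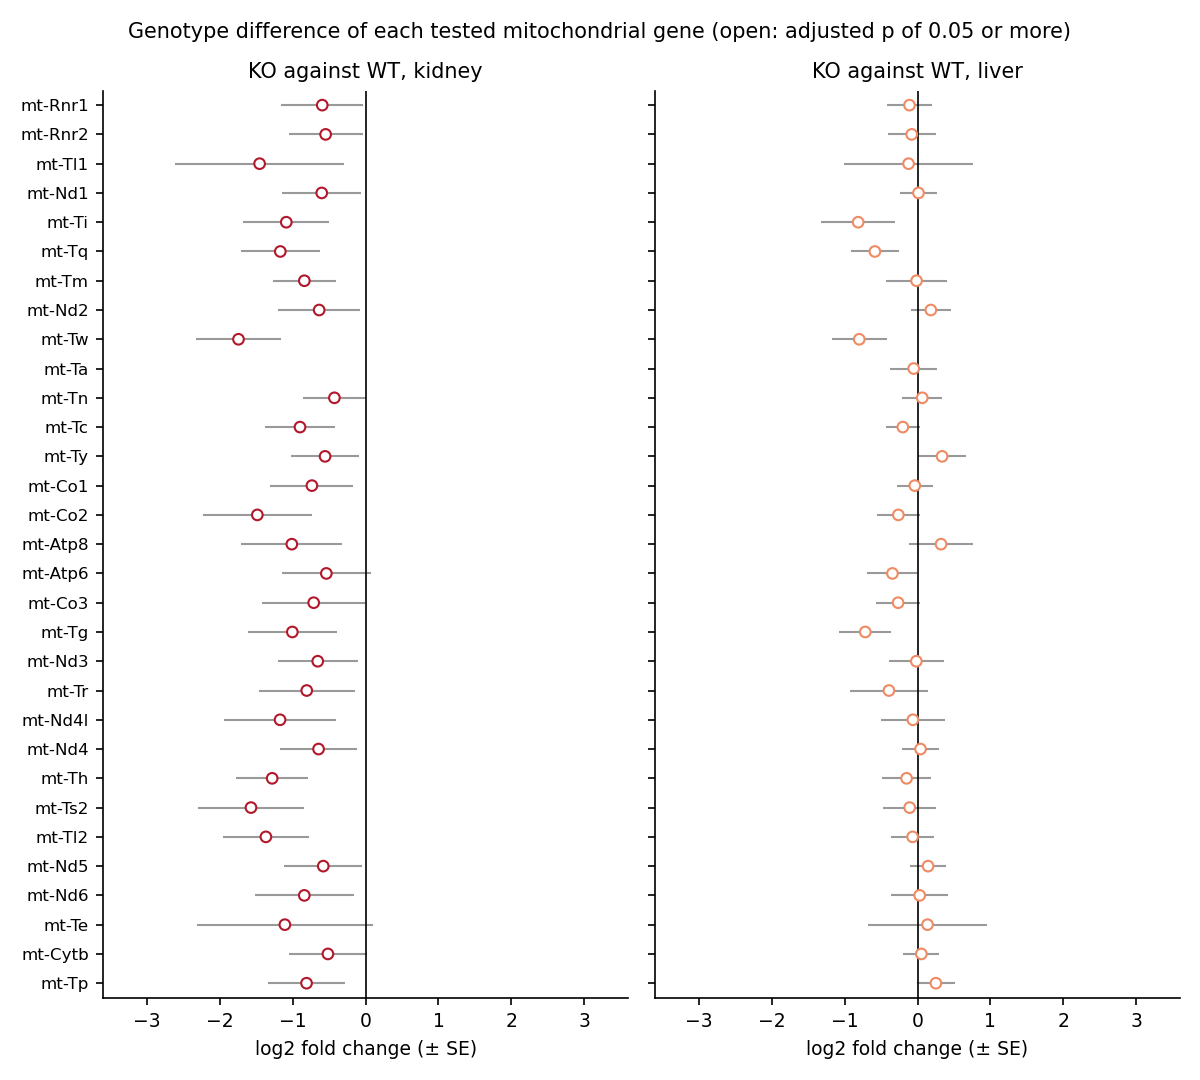
Log2 fold change of KO against WT for each tested mitochondrial gene, in order along the chromosome, in kidney (left) and liver (right); points are edgeR estimates, bars are ± SE, and open points have an adjusted p of 0.05 or more. Every point is open; in kidney all 30 lie below 0, and in liver the 31 lie from -0.82 to 0.34.

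Markers of other cell types differed between the KO and WT kidneys. Summed fibroblast and matrix markers were at 84.9 to 169 CPM of the non-mitochondrial total in KO kidney and 297 to 1251 in WT kidney, and 6 of the 8 fell by edgeR's test (Col1a1 log2 -2.91 ± 0.36, adjusted p = 0.00209). Lymphocyte markers were at 4.57 to 8.55 in KO kidney and 14.6 to 26.6 in WT kidney, with 4 of 9 lower, and endothelial markers at 170 to 404 in KO kidney and 403 to 779 in WT kidney, with 1 of 8 lower. Proximal tubule markers were at 65976 to 77143 in KO kidney and 47555 to 64391 in WT kidney, with 1 of 15 higher (Slc22a6), and 7 podocyte markers at 99.8 to 386 in KO kidney and 424 to 533 in WT kidney, with none called. Over all genes tested in kidney, edgeR called 2.26%. In WT kidneys 4, 5 and 6 alone, the sums were 297 to 606 for fibroblast and matrix, 14.8 to 22.8 for lymphocyte and 403 to 588 for endothelial markers. They were 52691 to 64391 for proximal tubule and 437 to 515 for podocyte markers. The calls given are those with all kidneys. None of these markers was at 0 throughout a group. Their part in the mitochondrial values was not tested.

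In liver too, no mitochondrial gene passed between the genotypes: 0 of 31 tested were called, beside 6.02% of all genes, and 0 reached an unadjusted p below 0.05, beside 20.3% of all genes. DESeq2's Wald test and limma voom also called 0, beside 1408 and 1153 of all 14822 genes tested. Fold changes ran from -0.82 to 0.34 with a median of -0.06, beside -0.00 over all genes. The gene mt-Co1 made up 3.80%, 3.37%, 5.24%, 2.32% and 2.87% of all counts in KO livers 1 to 5. It made up 4.86%, 3.90%, 3.57%, 3.84% and 2.81% in WT livers 1, 3, 4, 5 and 6. The ranges overlapped almost fully, and the log2 fold change was -0.04 ± 0.25 (edgeR adjusted p = 0.951).

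The tryptophan tRNA mt-Tw had 2.99, 3.65, 4.03, 1.87 and 1.19 CPM in KO livers 1 to 5. It had 8.32, 2.08, 5.11, 3.81 and 5.65 CPM in WT livers 1, 3, 4, 5 and 6. The 3 highest livers were WT, and the groups overlapped (log2 -0.80 ± 0.38; edgeR adjusted p = 0.261). At the other end stood mt-Ty, the tyrosine tRNA, with 11.3, 9.81, 12.1, 8.28 and 9.43 CPM in KO livers 1 to 5 and 15.8, 3.57, 9.40, 4.97 and 8.46 in WT livers 1, 3, 4, 5 and 6. It had a log2 fold change of 0.34 ± 0.33 (edgeR adjusted p = 0.617), and the WT livers held both its highest and its lowest value.

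Marker lists also differed between the genotypes in liver, where 4 of 8 fibroblast and matrix markers, 6 of 9 lymphocyte markers, 3 of 10 macrophage markers and 1 of 8 endothelial markers were lower in KO and 1 lymphocyte marker was higher, beside 6.02% of all genes called. Summed hepatocyte markers were at 110208 to 129033 CPM of the non-mitochondrial total in KO liver and 145622 to 168451 in WT liver, without overlap. Of the 15 markers 1 was called lower (Alb, log2 -0.75), but 9 had a positive fold change and the median was 0.18. The sum thus does not speak for most of these markers. Their part in the mitochondrial values was not tested. Whether the genotype difference differed between the tissues was tested in 1 fit of all 20 libraries. None of 31 mitochondrial genes was called by edgeR in that contrast, beside 1.51% of all genes, and none had an unadjusted p below 0.05, beside 13.5% of all genes. DESeq2's Wald test and limma voom called 0 as well, beside 611 and 681 of all 17606 genes tested. The difference of kidney minus liver in log2 fold change was -0.65 ± 0.64 for mt-Co1 (adjusted p = 0.661) and -0.90 ± 0.72 for mt-Tw (adjusted p = 0.588).

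Between the tissues, several mitochondrial genes did change. In KO mice, 4 coding genes rose in kidney relative to liver and 11 tRNAs fell, of 30 genes tested. The background was high: edgeR called 34.2% of all genes higher and 32.6% lower, 66.7% in all, so 15 of 30 lies below it. In WT mice the same 4 coding genes rose and 1 tRNA fell, of 31 tested, beside 29.6% higher, 24.2% lower and 53.8% in all. All 5 calls in WT were also called in KO: mt-Co2, mt-Co3, mt-Atp6, mt-Nd4l and mt-Tr. Equal numbers of a genotype were taken as 1 mouse in an alternative with the mouse as a block, which the labels do not spell out. With it edgeR called 13 mitochondrial genes in KO (4 higher, 9 lower) and 1 in WT (mt-Co3). Over all genes tested it then called 10691 of 16202 in KO and 8600 of 16645 in WT.

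The complex IV gene mt-Co2 had 707, 912, 542, 969 and 551 CPM in KO kidneys 1 to 5, against 169, 158, 240, 111 and 137 in KO livers 1 to 5. Every KO kidney exceeded every KO liver (log2 1.55 ± 0.24; edgeR adjusted p = 6.2e-05). In WT livers 1, 3, 4, 5 and 6 it had 359, 192, 163, 192 and 115 CPM, and the WT kidneys lay above all of them except WT kidney 1, with its 184 (log2 2.73 ± 0.80; edgeR adjusted p = 0.0108).

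The complex IV gene mt-Co3 had 695, 931, 367, 1685 and 359 CPM in KO kidneys 1 to 5, against 130, 90.3, 218, 98.9 and 104 in KO livers 1 to 5. In WT kidneys 1, 3, 4, 5 and 6 it had 142, 2806, 434, 1204 and 1651 CPM, against 263, 198, 105, 127 and 121 in the WT livers of the same numbers. The tissues did not overlap in KO mice, and in WT mice they overlapped through WT kidney 1. The log2 fold change was 2.04 ± 0.43 in KO (edgeR adjusted p = 0.000883) and 2.45 ± 0.68 in WT (edgeR adjusted p = 0.00755).

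The ATP synthase gene mt-Atp6 had 413 to 914 CPM in KO kidney against 71.0 to 221 in KO liver (log2 1.61 ± 0.34; edgeR adjusted p = 0.000978). It had 122 to 2044 CPM in WT kidney against 94.1 to 235 in WT liver (log2 1.76 ± 0.63; edgeR adjusted p = 0.0305). The complex I gene mt-Nd4l had 92.1 to 197 CPM in KO kidney against 15.3 to 86.0 in KO liver (log2 1.03 ± 0.40; edgeR adjusted p = 0.0368). In WT it had 38.5 to 923 CPM in kidney against 25.9 to 87.2 in liver (log2 2.09 ± 0.80; edgeR adjusted p = 0.0417). For both genes the tissues were apart in KO mice and overlapped in WT mice. In WT neither gene was called without WT kidney 3. With single libraries left out, edgeR's adjusted p in WT reached 0.125 for mt-Atp6 and 0.452 for mt-Nd4l. In KO it reached 0.0947 for mt-Nd4l.

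These 4 are among the 5 genes with nearly complete copies on chromosome 1. Beside 34.2% of all genes called higher in KO and 29.6% in WT, edgeR called 5 of the 7 copies higher in kidney in each genotype. In KO mice these were Gm28661 (1.48), Gm28437 (1.30), Gm10925 (1.07), Gm28438 (1.06) and Gm29216 (0.88), all higher in kidney than in liver on the log2 scale. In WT mice they were Gm28437 (2.27), Gm28661 (1.99), Gm29216 (1.57), Gm10925 (1.48) and Gm28438 (1.27). The copy of mt-Nd4l, Gm10222, was not called in either genotype. Copies and genes thus did not always go together: mt-Nd3 and mt-Co1 were not called, while their copies Gm28438 and Gm29216 were. Between genotypes none of the 7 copies was called. With each copy's counts added to its gene, 3 mitochondrial genes were called higher and 11 lower in KO mice, and 4 higher and 1 lower in WT mice. Over all genes tested, 10803 of 16195 were then called in KO and 8950 of 16638 in WT. The mitochondrial gene no longer called in KO was mt-Nd4l.

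None of the 6 genes with most counts was among these edgeR calls. For mt-Co1 the log2 fold change of kidney against liver was -0.10 ± 0.26 in KO (edgeR adjusted p = 0.742) and 0.56 ± 0.57 in WT (edgeR adjusted p = 0.441). For mt-Nd1 it was 0.62 ± 0.28 in KO (edgeR adjusted p = 0.0658) and 1.20 ± 0.54 in WT (edgeR adjusted p = 0.0782). DESeq2's Wald test called mt-Nd1 in both genotypes. In KO and WT it was 0.38 and 0.91 for mt-Cytb and 0.34 and 0.98 for mt-Nd4. For mt-Nd2 it was -0.07 and 0.70, and for mt-Nd5 -0.01 and 0.68. Fold changes here depend on the scaling. With library size alone, without TMM, the median over all genes was 0.62 in KO and 0.69 in WT, and mt-Co1 in KO moved to 0.52. The counts of mitochondrial calls became 7 higher and 8 lower in KO, and 12 higher and 0 lower in WT. Over all genes tested, 12153 of 16202 were then called in KO and 10702 of 16645 in WT. In WT, leaving out WT kidney 3 gave 2 higher and 9 lower, and leaving out WT kidney 1 gave 9 higher and 2 lower. Leaving out WT kidneys 1 and 3 gave 6 higher and 6 lower, and leaving out WT liver 4 or WT liver 6 gave 2 higher and 0 lower. In that order, these fits called 10006 of 17000, 8995 of 16681, 10707 of 17122, 8561 of 17207 and 8580 of 16949 genes.

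Shares within the set do not depend on that scaling. The gene mt-Co1 made up 30.8% to 36.4% of the mitochondrial counts in the 10 kidneys and 37.4% to 42.3% in the 10 livers. The tissues did not overlap in this share. For mt-Nd1 the share was 10.9% to 14.1% in kidney and 8.04% to 10.1% in liver, and for mt-Nd4 it was 8.71% to 10.4% and 7.99% to 8.53%, both again without overlap. For mt-Cytb it was 20.1% to 25.4% in kidney and 17.7% to 20.5% in liver, and for mt-Nd2 8.38% to 10.98% and 8.20% to 11.98%, where the tissues overlapped. The rRNAs together made up 1.15% ± 0.195 in KO kidney, 1.11% ± 0.283 in WT kidney, 1.47% ± 0.207 in KO liver and 1.69% ± 0.515 in WT liver (SD, n = 5 each).

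The tRNAs made up 0.177% ± 0.0554 of the set in KO kidney and 0.372% ± 0.0333 in KO liver (SD, n = 5 each). They made up 0.209% ± 0.0372 in WT kidney and 0.357% ± 0.0689 in WT liver (SD, n = 5 each). The cysteine tRNA mt-Tc had 19.8, 33.2, 17.4, 37.6 and 18.7 CPM in KO kidneys 1 to 5, against 49.4, 49.4, 53.1, 29.3 and 36.7 in KO livers 1 to 5. The 3 lowest values were in kidneys and the tissues overlapped in the others, and mt-Tc fell by 1.39 ± 0.25 on the log2 scale (edgeR adjusted p = 0.000236).

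The asparagine tRNA mt-Tn, next to mt-Tc on the same strand, had 13.2 to 26.5 CPM in KO kidney and 18.3 to 36 in KO liver. It fell by 1.14 ± 0.23 (edgeR adjusted p = 0.000602). The tyrosine tRNA mt-Ty had 3.68 to 8.75 CPM in KO kidney and 8.28 to 12.1 in KO liver, and fell by 1.48 ± 0.24 (edgeR adjusted p = 9.59e-05).

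Of the heavy-strand tRNAs, mt-Tw had 0.312 to 1.85 CPM in KO kidney and 1.19 to 4.03 in KO liver, and fell by 2.21 ± 0.44 (edgeR adjusted p = 0.000566). The methionine tRNA mt-Tm (MT:3845-3913) had 0.590 to 1.51 CPM in KO kidney and 2.30 to 3.29 in KO liver, with no overlap, and fell by 1.78 ± 0.26 (edgeR adjusted p = 4.11e-05). For mt-Th the values were 0.677 to 1.94 CPM in KO kidney and 1.05 to 3.33 in KO liver, and it fell by 1.66 ± 0.38 (edgeR adjusted p = 0.00152). The other 5 tRNAs called lower in KO kidney, named after their values were seen, were mt-Tl2, mt-Ts2, mt-Ti, mt-Tq and mt-Tr.

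In WT mice the single tRNA called was mt-Tr, the arginine tRNA. It had 2, 14, 19, 23 and 22 counts in WT kidneys 1, 3, 4, 5 and 6, against 30, 31, 36, 14 and 33 in the WT livers of the same numbers. Its log2 fold change of -1.41 ± 0.52 (edgeR adjusted p = 0.0345) rests on few counts. For mt-Tc, the WT kidneys had 9.43, 82.8, 47.5, 45.2 and 43.6 CPM and the WT livers 73.4, 29.7, 54.4, 52.8 and 52.2, with WT kidney 3 above every liver. The larger number of calls in KO than in WT does not show a difference between the genotypes. In the contrast of the tissues' differences, given above, none of 31 genes was called, and the estimates ran from -1.42 to -0.14 with a median of -0.68. Without WT kidney 3 they ran from -0.86 to 0.74 with a median of -0.03, and 19 of 31 were below 0. Without WT kidneys 1 and 3 they ran from -1.28 to 0.40 with a median of -0.36.

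**Figure D5:**
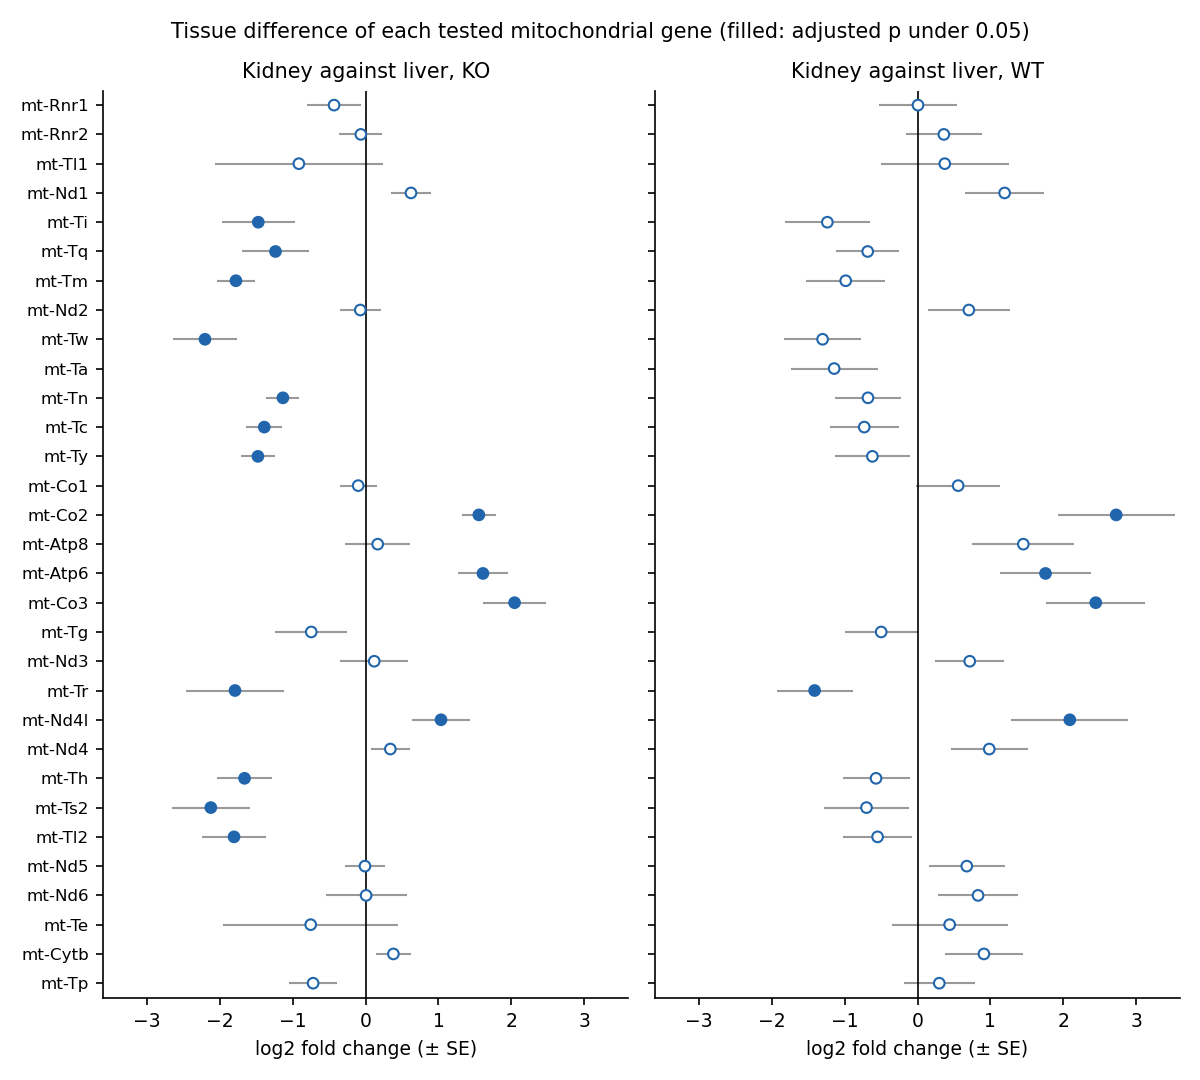
Log2 fold change of kidney against liver for each tested mitochondrial gene, in order along the chromosome, in KO mice (left) and WT mice (right); points are edgeR estimates with ± SE, filled where the adjusted p is below 0.05. In KO mice 4 coding genes lie above 0 and 11 tRNAs below 0 as filled points, and in WT mice 4 coding genes and 1 tRNA are filled, with wider bars.

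Ratios of 4 pairs of genes within a library were compared by exact two-sided permutation tests of 5 against 5 libraries, 16 tests in all. None passed Benjamini-Hochberg adjustment over the 16 tests, where the smallest adjusted p was 0.0635. The log2 ratio of mt-Rnr2 to mt-Rnr1 was 0.56 ± 0.13 in WT kidney and 0.07 ± 0.28 in WT liver (SD, n = 5 each), a difference of 0.50 with the smallest p the design allows (exact p = 0.00794). In KO it was 0.58 ± 0.28 in kidney and 0.20 ± 0.14 in liver (exact p = 0.0397, adjusted 0.190).

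The log2 ratio of mt-Atp8 to mt-Atp6 was -8.17 ± 0.56 in KO kidney and -6.70 ± 0.26 in KO liver (SD, n = 5 each; exact p = 0.00794, adjusted 0.0635). Reads on mt-Atp6 can also come from its copy on chromosome 1, which this ratio does not remove. Unannotated copies of mt-Atp8 were not searched for. The ratio of mt-Cytb to mt-Nd1, the last and the first coding genes of the heavy-strand transcript, was 0.73 in WT kidney and 0.98 in WT liver on the log2 scale (exact p = 0.0476, adjusted 0.190).

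Most parts of the respiratory chain and of the mitochondrial ribosome are encoded in the nucleus, and these genes were followed as lists. In kidney edgeR called no gene of any of the 9 lists between the genotypes, beside 2.26% of all genes. The median log2 fold change of KO against WT was 0.27 over 37 complex I genes, of which 35 were positive. It was 0.44 over 4 complex II genes, 0.30 over 9 complex III genes, 0.28 over 11 complex IV genes and 0.30 over 16 ATP synthase genes, beside -0.07 over all genes. Over 78 genes of the mitochondrial ribosome it was 0.29.

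The mitochondrial transcription list (21 genes, polymerase, its factors and the DNA maintenance enzymes) had a median of -0.02, RNA processing (26 genes) 0.19 and biogenesis regulators (11 genes) -0.12. Among these, the gene with the smallest p of each list had an adjusted p of 0.146 or more in kidney. These were Ndufv1 (complex I, log2 0.61 ± 0.28, adjusted p = 0.246), Atp5k (ATP synthase, 0.50, adjusted p = 0.334) and Mrps18b (mitochondrial ribosome, 0.76 ± 0.26, adjusted p = 0.146), among others. Without WT kidneys 1 and 3 the medians were 0.00 for complex I, 0.13 for complex II, 0.00 for complex III, -0.05 for complex IV, -0.05 for ATP synthase and 0.04 for the ribosome.

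In liver, 1 gene of the 9 lists was called between the genotypes, Mrps18a of the mitochondrial ribosome, which rose (log2 0.36 ± 0.09; edgeR adjusted p = 0.0289), beside 6.02% of all genes called. The list medians in liver lay between -0.20 (complex II) and 0.04 (mitochondrial ribosome), beside -0.00 over all genes. The next smallest p belonged to Rexo2, an exonuclease that degrades short mitochondrial RNA (0.37 ± 0.11; edgeR adjusted p = 0.0618).

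Between the tissues the nuclear genes of the respiratory chain were mostly higher in KO kidney than in KO liver: 34 of 37 complex I genes, 3 complex II genes, 5 complex III genes, 11 complex IV genes and 13 ATP synthase genes rose and none fell, of 4, 9, 11 and 16 tested in the last 4 lists. Over all genes edgeR called 34.2% higher and 32.6% lower. Their median log2 fold changes were 0.60, 0.60, 0.36, 0.60 and 0.58. The mitochondrial ribosome list had 34 genes higher and 16 lower of 78, and the transcription list 3 higher and 9 lower of 21. In WT mice, beside 29.6% of all genes higher and 24.2% lower, the complex I list had 6 higher and 0 lower, complex IV 1 higher and 0 lower, complexes II and III and ATP synthase none called, and the ribosome 6 higher and 13 lower. In KO mice all 11 nuclear complex IV genes tested were called higher in kidney, beside the mitochondrial complex IV genes mt-Co2 and mt-Co3. In WT mice mt-Co2 and mt-Co3 were called too, but only 1 of the 11 nuclear genes, a smaller share than over all genes. The third mitochondrial complex IV gene, mt-Co1, was not called in either genotype.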

How the data were processed

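Total RNA of kidneys and livers of the male mice was extracted with Trizol and made into libraries from 3 ug with the NEBNext Ultra kit, per the labels' protocols. The submitters' processing notes name HISAT2 2.0.5, StringTie, DESeq2 1.16.1 and mm10, with no role. The counting tool and its use of strand and of reads with several places are not given in the sources used here. The authors deposited raw counts per gene for 54532 genes, of which 20087 had no count in any library, and a log2 FPKM table of 15454 genes, which holds 30 of the 37 mitochondrial genes and served in an alternative.

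Genes were tested on the counts with edgeR 4.0.16 under R 4.3.3 (filterByExpr with a minimum count of 10, TMM, quasi-likelihood test, Benjamini-Hochberg over all genes tested, threshold 0.05), fitting only the groups compared, or all 4 groups for the difference between tissues. CPM and shares use library size alone, and fold changes use TMM. Ratios used exact permutation tests. Copies were found as shared runs of 50 bases between GENCODE M21 transcripts of GRCm38. The pipeline was tested on simulated data.

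Alternatives were DESeq2 size factors, no TMM, scaling without mitochondrial genes, no filter beyond 1 count, the DESeq2 1.42.0 Wald test, limma 3.58.1 voom with quality weights, limma-trend on log2 FPKM, all 20 libraries in 1 fit, a replicate block by the number in the title, leaving out WT kidneys 1 and 3, and leaving out each replicate. Adding each nuclear copy to its gene was chosen after seeing the data. Same-numbered kidney and liver deviated together with correlations of -0.15 to 0.28 in WT and -0.06 to 0.21 in KO, so the numbers were not shown to pair samples by the data. Equal numbers of different genotype share only a number.

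Named genes were all coding and rRNA genes, the 4 tRNAs with the highest mean CPM, up to 6 called tRNAs by smallest p, up to 3 called genes of each nuclear list or otherwise the gene with the smallest p, and the copies on chromosome 1. The members, lists and rule were chosen with earlier results of these data known. Replicates are separate mice per the labels, and p-values measure the spread between these libraries. Intervals cover counting error only.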

Additional observations from a re-analysis of the deposited data

Results flagged for a closer look

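In 112 groups of 5 libraries, the gap of the highest or lowest library to its neighbour was compared with Dixon's critical value of 0.71. Chance passes this value in about 1 in 20 groups. Fewer groups passed than that rate gives by chance, and those that did are listed here. KO liver 4 stood below the other KO livers in mt-Nd2, which made up 10.4% of its mitochondrial counts. WT kidney 1 stood above the other WT kidneys in mt-Cytb, which made up 23.996% of its mitochondrial counts. The same library stood above them in the log2 ratio of mt-Cytb to mt-Nd1, with 0.995. The mitochondrial share of all counts in WT kidney 3, at 50.8%, did not pass this value, because WT kidney 1 lay far to the other side.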

How the results depend on the processing

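Between genotypes in kidney, the count of mitochondrial genes called was 0 in edgeR. It was 1 by the DESeq2 Wald test, 2 by limma voom, 1 without WT kidneys 1 and 3, and 0 to 1 when single libraries were left out. Over all 16500 genes tested, edgeR called 373, the Wald test 1143 and limma voom 2151. Without WT kidneys 1 and 3 edgeR called 590 of 16801 genes, and 99 to 921 genes when single libraries were left out. In liver and in the difference between tissues the count of mitochondrial genes called was 0 under every alternative run. Between WT tissues the count was 5 in edgeR, 12 without TMM, 8 by the DESeq2 Wald test, 13 by limma voom, 12 without WT kidneys 1 and 3 and 1 by limma-trend on log2 FPKM. It was 1 with the replicate block and 2 to 11 when single libraries were left out. Over all 16645 genes tested, edgeR called 8954, or 10702 without TMM and 8600 with the replicate block. The Wald test called 9367 and limma voom 11421. Without WT kidneys 1 and 3 edgeR called 10707 of 17122 genes, and 8504 to 10006 when single libraries were left out. Limma-trend called 7226 of 15454 genes. Between KO tissues the count of mitochondrial genes called was 15, 13 with the replicate block and 12 to 16 when single libraries were left out. Over all 16202 genes tested, edgeR called 10811, or 10691 with the replicate block. It called 10460 to 10921 genes when single libraries were left out. Other counts of mitochondrial genes called stayed within 1.5 times, and the replicate block changed no other such count.

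The difference in medians turned the sign of the log2 ratio of mt-Rnr2 to mt-Rnr1 between genotypes in liver (-0.10) and of mt-Atp8 to mt-Atp6 between WT tissues (0.0486). Leaving out single libraries gave -0.0625 to 0.0923 for mt-Rnr2 to mt-Rnr1 between genotypes in kidney and -0.021 to 0.15 for mt-Cytb to mt-Nd1. For mt-Nd6 to mt-Nd5 it gave -0.13 to 0.22 between WT tissues and -0.32 to 0.17 between KO tissues. The log2 fold change of mt-Co1, not called, was 0.0681 by limma voom between genotypes in liver and 0.52 without TMM between KO tissues. With single libraries left out it was -0.93 to 0.0362 between genotypes in kidney, -0.25 to 0.0885 in liver, -0.18 to 0.81 between WT tissues, -0.22 to 0.0931 between KO tissues and -0.90 to 0.0802 in the difference between tissues. The cause was not tested. Single heavy-strand tRNAs rest on few counts, and so do some light-strand tRNAs, such as mt-Tq with 434 counts over all libraries. A count of 0 in a library allows about 0.1 CPM.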
